A study of Homo sapiens with 9 samples.

Results

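The 10 genes described here are read together as markers of ovarian lineage and of epithelial or mesenchymal state: PAX8, WT1, CDH1, CDH2, VIM, KRT8, KRT18, EPCAM, CLDN4 and MUC1. They were chosen by name, with earlier results of these data known. All 10 were found among the 24542 genes and loci of the count table, and 6 of them, VIM, CDH2, KRT8, EPCAM, CLDN4 and MUC1, had enough counts to be among the 15558 genes tested. In cisplatin-treated A2780 cells KRT8, EPCAM and CLDN4 rose against DMSO, the EPCAM call being lost when any 1 of 8 libraries was left out. KRT8 and EPCAM passed the filter on low counts with no DMSO library above its minimum, so a difference was built into being tested. KRT8 also has many pseudogenes, and its counts are uncertain. VIM was among the genes with the highest counts, and PAX8, WT1, CDH1 and KRT18 stayed at or near 0 counts. In bulk RNA a change in the number of cells with a marker and a change in RNA per cell cannot be told apart.

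Epithelial cells hold their neighbours through E-cadherin at adherens junctions and claudins at tight junctions, and carry keratins 8 and 18 as paired intermediate filaments. In an epithelial-mesenchymal transition, transcription factors of the SNAIL, ZEB and TWIST families lower these genes and raise N-cadherin and vimentin. PAX8 and WT1 are transcription factors used in pathology to assign a carcinoma to the Mullerian tract and to serous ovarian tumours, where keratins and EPCAM are usually also present.

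The libraries were mRNA-seq libraries of A2780, a human cell line labelled as ovarian carcinoma and wild type, made after 96 h in 1 of 3 conditions. The conditions were 5.5 µM Pt-ttpy (3 libraries), 0.6 µM cisplatin (3 libraries) and 0.5% DMSO (3 libraries). Pt-ttpy is a platinum complex with a terpyridine ligand that binds G-quadruplex DNA, and cisplatin is the platinum drug that crosslinks DNA. Both were used at their IC80 per the labels, so the 2 molar doses differ, and the labels give no vehicle for the drug-treated cells.

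The libraries held 31.3 to 40.8 M counts, and levels are given in CPM, the count scaled to library size with TMM factors. In cisplatin replicate 2 and DMSO replicate 2 the level of a gene, relative to its mean over the 9 libraries, increased with its GC content. Across 13383 genes the Spearman rho was 0.42 in cisplatin replicate 2 and 0.53 in DMSO replicate 2. In the other 7 libraries it was -0.35 to -0.17. These deviations cancel out over the 9 libraries for each gene, so the rho values are not independent of each other. Values without both of these libraries stand beside each of VIM, MUC1, EPCAM, CLDN4, KRT8, PAX8 and WT1. The replicates are labelled as biological, with nothing on separate cultures, so p-values measure the spread between these libraries.

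Per kilobase of exon, VIM, the intermediate filament protein of mesenchymal cells, ranged from 954 to 1738 CPM over the 9 libraries with a median of 1188, above 99.9% of the genes tested. By mean CPM it was number 2 of all genes in the table. The next members were MUC1, a transmembrane mucin, with a median of 0.785 CPM per kilobase, and CLDN4, a tight-junction claudin, with 0.567. EPCAM, an epithelial adhesion molecule, followed with 0.0706, then KRT8 with 0.056 and CDH2, which encodes N-cadherin, with 0.0347. CDH1, which encodes E-cadherin, had a median of 0.0096, and WT1, PAX8 and KRT18 had medians of 0. The lowest VIM library was above the highest library of every other member, whereas each of the other neighbours in this order overlapped in range and cannot be ranked.

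**Figure D1:**
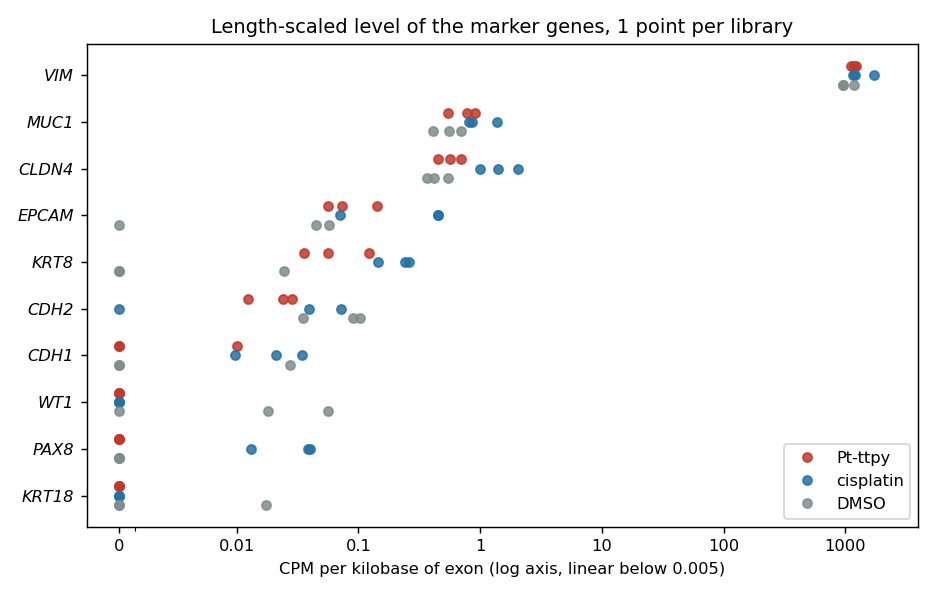
Length-scaled level (CPM per kilobase of exon, log axis that is linear below 0.005) of the 10 marker genes, with 1 point per library coloured by treatment. VIM lies between 954 and 1738 in all 9 libraries, and PAX8, WT1 and KRT18 sit at 0 in most.

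RefSeq (GRCh38.p14) promoter windows, 250 bases before to 50 after an annotated start, were at hand for 7 of the 10 members. CDH1, KRT18 and EPCAM had none. Printed here are CLDN4 and KRT8, which both rose under cisplatin, MUC1, which holds the E-boxes that SNAIL and ZEB proteins recognise, and VIM, the member with the highest level. The motifs were searched on both strands, and capitals mark their matches: the E-box CACCTG, the grainyhead site AACCGGTT, the AP-1 site TGANTCA, and a G-quadruplex pattern of 4 runs of at least 3 G with 1 to 7 bases between runs. The windows are chr7:73830746-73831045 on the + strand for CLDN4, chr12:52926420-52926719 on the - strand for KRT8, chr1:155192866-155193165 on the - strand for MUC1 (the outer of 2 overlapping windows) and chr10:17227991-17228290 on the + strand for VIM, each written 5′ to 3′ along the gene.
CLDN4: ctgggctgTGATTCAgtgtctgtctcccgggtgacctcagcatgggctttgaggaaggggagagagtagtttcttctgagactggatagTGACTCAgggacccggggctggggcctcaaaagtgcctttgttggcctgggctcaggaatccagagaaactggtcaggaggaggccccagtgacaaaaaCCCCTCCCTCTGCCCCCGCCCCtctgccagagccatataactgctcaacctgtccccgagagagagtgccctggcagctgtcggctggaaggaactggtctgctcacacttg
KRT8: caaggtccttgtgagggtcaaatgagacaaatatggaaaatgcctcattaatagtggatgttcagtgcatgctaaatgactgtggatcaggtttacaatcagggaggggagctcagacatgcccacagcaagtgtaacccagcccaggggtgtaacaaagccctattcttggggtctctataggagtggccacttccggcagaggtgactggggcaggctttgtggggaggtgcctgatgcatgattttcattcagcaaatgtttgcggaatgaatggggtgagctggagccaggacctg
MUC1: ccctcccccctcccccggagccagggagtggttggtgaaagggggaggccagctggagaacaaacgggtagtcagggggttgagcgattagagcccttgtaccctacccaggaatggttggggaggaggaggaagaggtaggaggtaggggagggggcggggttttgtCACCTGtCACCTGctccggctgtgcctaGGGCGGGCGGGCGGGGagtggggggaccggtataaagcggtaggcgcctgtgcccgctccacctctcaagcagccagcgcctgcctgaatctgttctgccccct
VIM: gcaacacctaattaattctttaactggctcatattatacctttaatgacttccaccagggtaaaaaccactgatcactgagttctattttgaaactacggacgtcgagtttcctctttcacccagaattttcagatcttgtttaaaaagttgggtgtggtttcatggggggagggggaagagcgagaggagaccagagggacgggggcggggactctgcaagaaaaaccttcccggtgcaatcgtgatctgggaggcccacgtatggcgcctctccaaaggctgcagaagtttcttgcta

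In the CLDN4 window the AP-1 letters occurred at 2 places, at -242 to -236 and at -161 to -155 from the start. The G-quadruplex pattern lay on its other strand at -62 to -41, where it reads as runs of C. The MUC1 window held 2 E-boxes, at -82 to -77 and at -75 to -70, and 1 G-quadruplex pattern on the gene strand at -54 to -39. The KRT8 and VIM windows held none of the 4 motifs, and no window of a member held the grainyhead site. The CLDN4 and KRT8 windows lie inside the spans of these genes given below, away from the 5′ ends. Other starts of CLDN4 and KRT8 were not searched. Among the windows not printed, PAX8 had 1 G-quadruplex pattern, 1 of 4 WT1 windows had 1 and 1 of 2 CDH2 windows had 2, and another WT1 window and another CDH2 window each held 1 AP-1 match. Over all 35116 RefSeq windows, 20.6% held the E-box, 0.134% the grainyhead site, 7.71% the AP-1 site and 25% the G-quadruplex pattern. A match in these letters is a description of the window, not a site of binding.

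PAX8 (chromosome 2, 113215997 to 113278950, minus strand, GRCh38), a paired-box factor of the Mullerian duct, kidney and thyroid, had 0 counts in all 3 Pt-ttpy libraries. It had 3, 12 and 10 counts in the cisplatin libraries and 0 in all 3 DMSO libraries. The cisplatin libraries were thus the ones with any PAX8 counts, at 0.226 ± 0.112 CPM (SD, n = 3), and their range met neither of the other groups. A summed count of 0 over a group allows up to 3 counts over that group. Against this floor, with the cisplatin counts taken as exact, the summed PAX8 count was at least 8.61-fold higher in cisplatin than in DMSO. It was at least 7.92-fold lower in Pt-ttpy than in cisplatin. The counting error of the cisplatin counts is not in these bounds. Without cisplatin replicate 2 and DMSO replicate 2 these bounds were 5.06-fold and 6.8-fold. PAX8 was under the filter on low counts and was not tested. Its exons share 685 bp with PAX8-AS1 on the opposite strand, 9.3% of its exon length, and whether counting used strand is not given in the sources used here.

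WT1 (chromosome 11, 32387775 to 32435630, minus strand), a zinc-finger factor of the gonad and mesothelium, had 0 counts in the 3 Pt-ttpy and the 3 cisplatin libraries. The DMSO libraries had 0, 8 and 3 counts. With DMSO replicate 1 also at 0, the groups overlapped. On the same floor, with the DMSO counts taken as exact, the summed count was at least 3.37-fold lower in Pt-ttpy than in DMSO. In cisplatin it was at least 3.55-fold lower. Of the 11 DMSO counts 8 came from DMSO replicate 2, a library with the opposite GC trend, and without it DMSO held 3 counts, the floor itself, so that no fold is given. WT1 was not tested.

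Among other markers used for ovarian carcinoma cells, WFDC2, the gene of the serum marker HE4, had 0 counts in all 9 libraries, and MUC16, the gene of CA125, had 6 counts summed over cisplatin libraries and 0 in the other groups. SOX17, a partner of PAX8 in the Mullerian lineage, was also at 0 in all 9. Of 23 ovarian and Mullerian lineage genes beside the members, 12 had under 10 counts in each library and 7 were tested. FOXL2, a factor of ovarian granulosa cells named here after its values were seen, averaged 45.9 ± 0.889 CPM in Pt-ttpy, 48.7 ± 2.81 in cisplatin and 46.1 ± 10.7 in DMSO (SD, n = 3 each). Of 7 markers listed for ovarian carcinoma cells, PAX8, WT1, MUC16, WFDC2 and KRT18 were thus at or near 0, and EPCAM and KRT8 were low.

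VIM (chromosome 10, 17228259 to 17237593, plus strand) had 5807, 6317 and 6129 CPM in Pt-ttpy, 5984, 8964 and 6190 CPM in cisplatin and 4922, 6128 and 4957 CPM in DMSO. Cisplatin replicate 2 was the highest library and DMSO replicate 2 the highest of its group, and both drug groups overlapped DMSO through that DMSO library. The fitted log2 change was 0.19 ± 0.15 for Pt-ttpy against DMSO (SE, adjusted p = 0.424) and 0.40 ± 0.15 for cisplatin against DMSO (adjusted p = 0.0743), and neither passed the threshold of 0.05. Without cisplatin replicate 2 and DMSO replicate 2, the libraries with the opposite GC trend, the changes were 0.30 (adjusted p = 2.35e-05) and 0.31 (adjusted p = 6.65e-05), so both were called higher. Such a fall in adjusted p was not particular to VIM. In that fit COL3A1 in Pt-ttpy against DMSO went from 0.0101 (log2 0.77) to 2.09e-09 (0.78). In cisplatin against DMSO CDH3 went the other way, from 0.0218 to 0.103. The share of all genes called in that fit is not given here. With the replicate number as a block, cisplatin against DMSO was also called, at 0.39 (adjusted p = 0.0195). Leaving out 1 library was enough for this call in 2 cases, DMSO replicate 2 (0.52, adjusted p = 0.0426) and cisplatin replicate 1 (0.50, adjusted p = 0.0485). Between Pt-ttpy and cisplatin the log2 change was -0.21 ± 0.15 (95% interval -0.53 to 0.11, adjusted p = 0.78). VIM-AS1 and AL133415.1 lie on the opposite strand over 12.4% and 12.0% of its exon length.

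CDH2 (chromosome 18, 27950966 to 28177446, minus strand), the cadherin that replaces E-cadherin in mesenchymal cells, was low in all 9 libraries. It had 2, 5 and 4 counts in Pt-ttpy, 6, 0 and 12 in cisplatin and 18, 6 and 18 in DMSO. All 3 Pt-ttpy libraries were below the DMSO libraries, while cisplatin overlapped both. The log2 change was -1.77 ± 0.99 for Pt-ttpy against DMSO (SE, adjusted p = 0.257) and -1.07 ± 0.94 for cisplatin against DMSO (adjusted p = 0.453). On summed counts the Pt-ttpy to DMSO ratio was 0.285, with a 95% interval from counting error alone of 0.132 to 0.562. The drugs differed by -0.71 ± 1.05 in log2, Pt-ttpy over cisplatin (95% interval -2.99 to 1.57, adjusted p = 0.891), and this direction turned to 0.26 without cisplatin replicate 3 and to 0.44 with limma-voom.

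CDH1 (chromosome 16, 68737225 to 68835548, plus strand), the adherens-junction cadherin of epithelia, had 2, 0 and 0 counts in Pt-ttpy, 4, 9 and 2 in cisplatin and 6, 0 and 0 in DMSO. No library passed the 0.285 CPM that the filter on low counts asked for, and the groups overlapped in each comparison. The summed counts of 2, 15 and 6 gave a cisplatin to DMSO ratio of 2.58 with a counting interval of 0.947 to 8.12, which includes no difference. The Pt-ttpy to cisplatin ratio was 0.14, with a counting interval of 0.0156 to 0.603. CDH1 was not tested.

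EPCAM (chromosome 2, 47345158 to 47387601, plus strand) had 6, 5 and 12 counts in Pt-ttpy, 35, 48 and 6 in cisplatin and 4, 5 and 0 in DMSO. Cisplatin replicate 3 was close to the DMSO libraries and the other cisplatin libraries were far above them. All cisplatin libraries were above all DMSO libraries by CPM, and Pt-ttpy overlapped both groups. EPCAM rose in cisplatin by a log2 change of 3.24 ± 0.96 (SE, adjusted p = 0.0338), with 0.814 ± 0.551 CPM in cisplatin and 0.0852 ± 0.0754 CPM in DMSO (SD, n = 3 each). This call was lost when any 1 of 8 libraries was left out, cisplatin replicate 3 being the exception, with adjusted p of 0.0541 to 0.101, and with limma-voom (0.0714). Without both cisplatin replicate 2 and DMSO replicate 2 the change was 3.51 (adjusted p = 0.0439). In Pt-ttpy the change was 1.41 ± 1.00 (adjusted p = 0.375), and Pt-ttpy over cisplatin gave -1.83 ± 0.86 (95% interval -3.71 to 0.05, adjusted p = 0.631).

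CLDN4 (chromosome 7, 73799542 to 73832693, plus strand) had 69, 117 and 90 counts in Pt-ttpy, 298, 278 and 159 in cisplatin and 61, 89 and 79 in DMSO. In CPM these were 2.12, 3.3 and 2.67 in Pt-ttpy, 9.6, 6.58 and 4.71 in cisplatin and 1.72, 2.55 and 1.97 in DMSO. Every cisplatin library was above every library of the other groups, whereas Pt-ttpy and DMSO overlapped. CLDN4 rose in cisplatin by a log2 change of 1.74 ± 0.30 (SE, adjusted p = 0.00379), and the call held in all 23 alternatives, with log2 changes of 1.44 to 1.96. Without cisplatin replicate 2 and DMSO replicate 2 the change was 1.96 (adjusted p = 0.000259). Pt-ttpy against DMSO gave 0.38 ± 0.30 (adjusted p = 0.434). Pt-ttpy over cisplatin gave -1.37 ± 0.30 (95% interval -2.01 to -0.72, adjusted p = 0.0814), which missed the threshold in this fit and passed it without cisplatin replicate 3 (adjusted p = 0.0483), without cisplatin replicate 2 and DMSO replicate 2 (0.00683), without a filter on low counts (0.0493) and with DESeq2 (0.0029).

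KRT8 (chromosome 12, 52897187 to 52949954, minus strand), the type II keratin of simple epithelia, had 8, 30 and 13 counts in Pt-ttpy, 51, 75 and 34 in cisplatin and 6, 0 and 0 in DMSO. The 3 groups did not overlap, with cisplatin highest and DMSO lowest. KRT8 rose in cisplatin by a log2 change of 4.66 ± 0.96 (SE, adjusted p = 0.00786). The ratio of summed counts was 27.5, with a counting interval of 12.4 to 76.2. All 6 DMSO counts were in DMSO replicate 1, and without it DMSO was at 0. On the floor of 3 counts over the group, with the drug counts taken as exact, the summed count was then at least 37.4-fold higher in cisplatin. In Pt-ttpy it was at least 12.5-fold higher. The fitted cisplatin change ranged over the alternatives between 3.97, without cisplatin replicate 2 and DMSO replicate 2 (adjusted p = 0.00621), and 8.71, without DMSO replicate 1, where a fitted value against 0 counts is no bound. Against DMSO, Pt-ttpy gave 3.09 ± 0.97 (adjusted p = 0.0587, unadjusted p = 0.00797) and a summed-count ratio of 9.24 with an interval of 3.96 to 26.3, and was not called. It was called without DMSO replicate 1 (adjusted p = 0.0181), with no filter on low counts (0.0495) and with DESeq2 (0.00902). Pt-ttpy over cisplatin was -1.57 ± 0.76 (95% interval -3.23 to 0.09, adjusted p = 0.648).

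KRT18 (chromosome 12, 52948871 to 52952901, plus strand), the type I partner with which keratin 8 forms filaments, had 0 counts in the 3 Pt-ttpy and the 3 cisplatin libraries and 2, 0 and 0 in DMSO. No library had more than 2 counts. Both have many pseudogenes: GENCODE 29 names 50 pseudogenes after KRT8 and 67 after KRT18, and 10.1% and 14.3% of their 50-base windows recur exactly in another gene, 1.6% and 0.0% at 100 bases. Their exons also overlap each other on opposite strands by 525 bp, 7.6% of KRT8 and 16.3% of KRT18. The counts of both are therefore uncertain, and the part of shared reads in the KRT18 level was not tested.

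MUC1 (chromosome 1, 155185824 to 155192916, minus strand), the glycosylated mucin of the apical membrane, had 2.55, 4.26 and 3.7 CPM in Pt-ttpy, 4.06, 6.49 and 3.82 CPM in cisplatin and 1.91, 2.63 and 3.29 CPM in DMSO. Every cisplatin library was above every DMSO library, and Pt-ttpy overlapped both groups. The log2 change in cisplatin was 0.87 ± 0.30 (SE, adjusted p = 0.0596), short of the threshold, and with the replicate block it was called at 0.87 (adjusted p = 0.0319). The highest cisplatin value came from replicate 2, a library with the opposite GC trend, and the longest MUC1 transcript has 71.2% GC. Without that library and DMSO replicate 2 the change was 0.60 (adjusted p = 0.172), and the part of GC content in it was not tested further. Pt-ttpy gave 0.42 ± 0.30 against DMSO (adjusted p = 0.38) and -0.45 ± 0.30 over cisplatin (95% interval -1.11 to 0.20, adjusted p = 0.76).

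**Figure D2:**
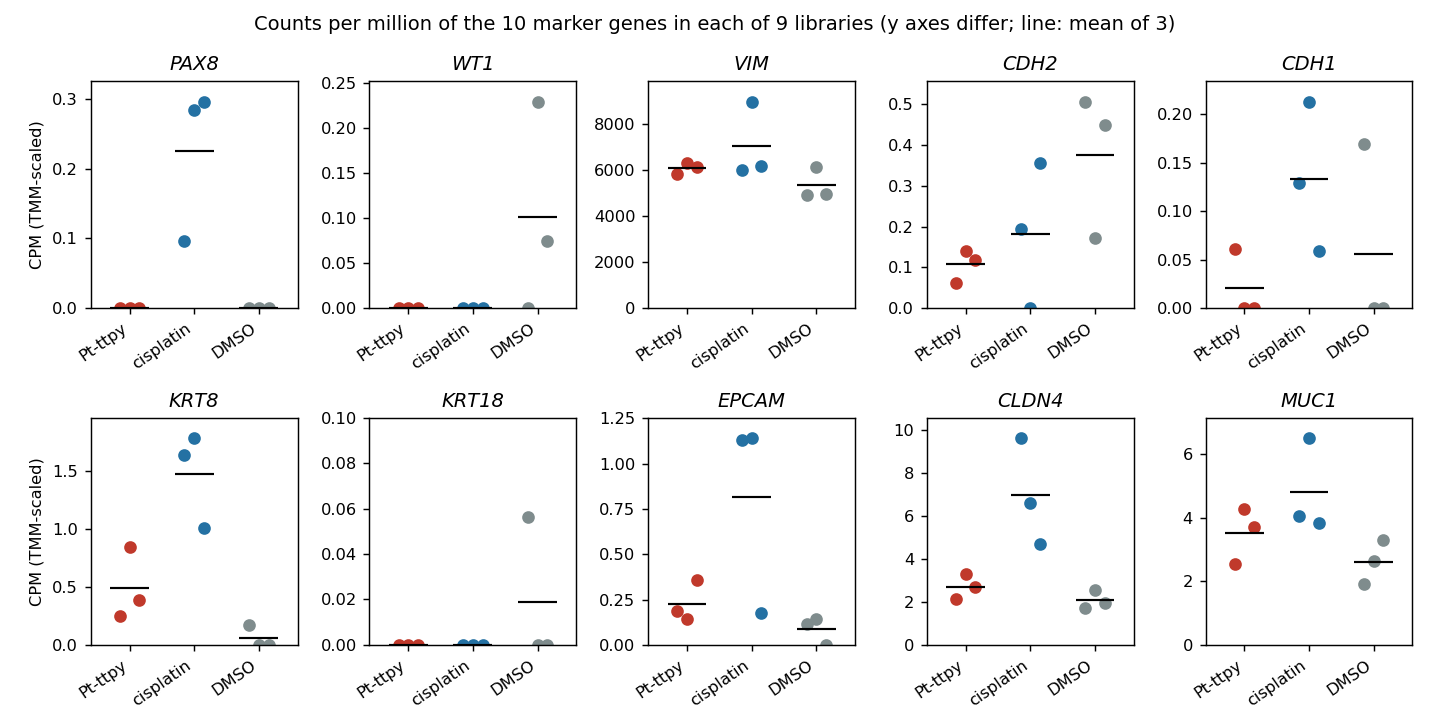
CPM of each marker gene in each library, with 1 point per library, a line at the mean of 3, groups from left to right Pt-ttpy, cisplatin and DMSO, and a y axis of its own in each panel. CLDN4 lies between 4.71 and 9.6 CPM in cisplatin libraries, against at most 3.3 in Pt-ttpy and 2.55 in DMSO.

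Set against all genes, cisplatin called 3 of the 6 tested members, KRT8, EPCAM and CLDN4, all higher, where 20.5% of the genes tested were called, 10.7% higher and 9.78% lower. The replicate block brought this to 5 members, adding VIM and MUC1. Shares of all genes in this paragraph are those of the main fit, and those of the block, limma-voom and DESeq2 are not given here. Pt-ttpy called 0 of the 6 with edgeR's quasi-likelihood test, where 12.0% of tested genes were called, 5.59% higher and 6.45% lower. At an unadjusted p under 0.05 there was 1 member, KRT8, and limma-voom called 0 and DESeq2 1 (KRT8). Between Pt-ttpy and cisplatin edgeR called 0 of the 6 against 0.514% of all genes (0.0578% higher and 0.456% lower), with 1 at an unadjusted p under 0.05 (CLDN4), 0 with limma-voom and 1 with DESeq2 (CLDN4).

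The values of the groups did not overlap for 2 of the 6 in Pt-ttpy against DMSO (CDH2 and KRT8), beside 40.9% of all tested genes. They did not overlap for 4 of the 6 in cisplatin against DMSO, beside 38.0%, and for 2 of the 6 in Pt-ttpy against cisplatin (KRT8 and CLDN4), beside 20.6%. KRT8 and EPCAM passed the filter without any DMSO library above 0.285 CPM, and CDH2 passed through 2 DMSO and 1 cisplatin library, so for these genes a difference was built into being tested and the counts of members carry no support. VIM, CLDN4 and MUC1 were above it in all 9 libraries. The 2 drug comparisons share the DMSO libraries and are not independent.

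**Figure D3:**
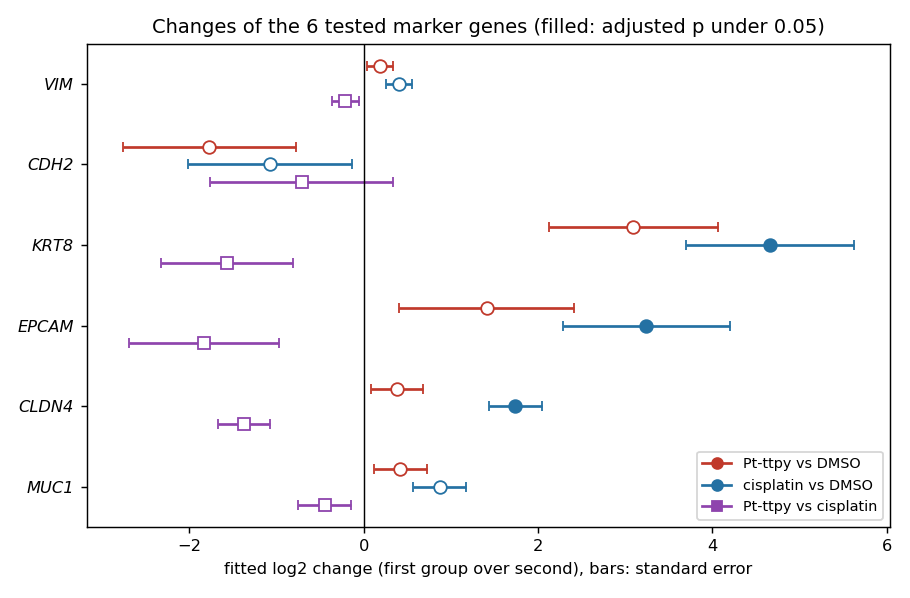
Fitted log2 change with its standard error for the 6 tested members for both drugs against DMSO and for Pt-ttpy over cisplatin; filled symbols have an adjusted p under 0.05. KRT8, EPCAM and CLDN4 are filled for cisplatin vs DMSO, at 4.66, 3.24 and 1.74.

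The gene whose profile over the 9 libraries was most like each member was sought among 10634 genes with a mean of at least 5 CPM, by Pearson r of log2(CPM + 0.5). For KRT8 these were LPIN2 (r = 0.985), CABYR (0.979) and ACTA2 (0.97). For CLDN4 they were DPYSL4 (0.981), SUMF1 (0.96) and NTPCR (0.955), and for EPCAM SMIM19 (0.967), CNTNAP3 (0.939) and KIAA1671 (0.925). CUL7 was nearest to VIM (0.993), XRN2 to CDH2 (0.971) and DNAJC18 to MUC1 (0.943). These are the highest values among many candidates in 9 libraries that share treatment groups and the GC trend, so they describe the profiles only.

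Other epithelial genes gave a mixed picture under cisplatin. Of 21 junction and surface genes, 13 were tested and 5 rose, beside 10.7% of all tested genes called higher. In cisplatin 8 of 13 changes were positive, and the median log2 change was 0.12 against 0.01 over all tested genes. Those with the highest mean CPM in DMSO were TJP1 (152), LSR (98.4) and OCLN (73.6). They averaged 134, 82.2 and 66.9 CPM in cisplatin, with no call. This list was chosen with earlier results of these data known, so the count carries no support. The summed level of the 21 genes was 440 to 442 CPM in Pt-ttpy, 452 to 484 CPM in cisplatin and 422 to 446 CPM in DMSO. F11R, the junctional adhesion molecule A, averaged 71.2 ± 20.6 CPM in cisplatin and 32.5 ± 2.31 in DMSO (SD, n = 3 each; log2 1.13 ± 0.17, adjusted p = 0.0021), and JUP, plakoglobin of desmosomes and adherens junctions, rose by 0.87 ± 0.20 (adjusted p = 0.0126). SPINT2, a surface protease inhibitor, rose by 2.58 ± 0.62 (adjusted p = 0.0148) and CLDN7, another claudin, by 1.70 ± 0.43 (adjusted p = 0.0182). SPINT2 was lost without DMSO replicate 3 (0.0527) or cisplatin replicate 2 (0.0608), and CLDN7 without DMSO replicate 1 (0.0563), DMSO replicate 3 (0.0661) or cisplatin replicate 2 (0.0693). The fifth was CDH3 or P-cadherin, named after its values were seen. It had 16, 79 and 11 counts in the cisplatin libraries and 0, 0 and 3 in DMSO. Most of its cisplatin counts thus came from replicate 2, a library with the opposite GC trend. The summed counts, 106 and 3, gave a ratio of 36.5. Its counting interval of 12.2 to 180 leaves out the spread between libraries. The CDH3 call (adjusted p = 0.0218) was lost without DMSO replicate 1 (0.0667), DMSO replicate 2 (0.0669) or cisplatin replicate 2 (0.101), and without both replicates 2 of cisplatin and DMSO (0.103). CDH3 had at most 3 counts in a DMSO library, so it passed the filter through drug-treated libraries and a difference was built into being tested. SPINT2, with 6, 13 and 4 counts in DMSO, also passed the filter mainly through drug-treated libraries. In Pt-ttpy 0 of the 13 were called, with 10 of 13 changes positive and a median of 0.29 against 0.03 over all genes.

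Of 10 epithelial transcription and splicing factors 6 were tested. GRHL3, a grainyhead factor of surface epithelia, averaged 2.62 ± 0.505 CPM in Pt-ttpy, 8.01 ± 1.53 in cisplatin and 0.405 ± 0.168 in DMSO (SD, n = 3 each). The groups did not overlap, and GRHL3 rose in both drugs, by 2.68 ± 0.33 in Pt-ttpy (adjusted p = 0.00251) and 4.29 ± 0.34 in cisplatin (adjusted p = 2.58e-05). It was lower in Pt-ttpy than in cisplatin by a log2 change of -1.61 ± 0.29 (adjusted p = 0.0301), a call lost when any 1 of 7 libraries was left out, at adjusted p of 0.0551 to 0.214. ELF3, an ETS factor of epithelia, rose in cisplatin by 2.16 ± 0.43 (adjusted p = 0.00703). These 2 were the only positive changes in cisplatin among the 6 tested, beside 10.7% of all tested genes called higher. The median log2 change was -0.04, against 0.01 over all tested genes. OVOL2 averaged 0.403 CPM in cisplatin and 0.851 in DMSO, without a call. This list too was chosen with earlier results of these data known, so the count carries no support. GRHL2 had 0 counts in all 9 libraries and ESRP1, an epithelial splicing factor, had 2 counts in all.

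Apart from KRT10, the other keratins listed were almost absent: KRT7 had 0 counts in all 9 libraries and KRT19 had 2 in Pt-ttpy, 0 in cisplatin and 2 in DMSO. KRT10 averaged 11.5 CPM in Pt-ttpy, 11 in cisplatin and 20.6 in DMSO. Of the 7 in that list 1 was tested, KRT10, which fell by 0.84 on the log2 scale in Pt-ttpy (SE 0.15, adjusted p = 0.00857) and by 0.91 in cisplatin (SE 0.15, adjusted p = 0.00264). KRT10 is a keratin of stratified epithelia, and in cisplatin it fell where KRT8 rose. The cadherin partners had no call in either drug among 6 tested, beside 12.0% of all tested genes in Pt-ttpy and 20.5% in cisplatin. With 6 genes this cannot show that the list did not respond. CTNNB1, which encodes beta-catenin, averaged 468 ± 18.8 CPM in Pt-ttpy, 461 ± 37.8 in cisplatin and 492 ± 20.1 in DMSO (SD, n = 3 each).

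Among 8 tested EMT transcription factors, TWIST1 had the highest level per kilobase of exon in all 3 groups, and stood at 371 ± 18.3 CPM in Pt-ttpy, 345 ± 15.3 in cisplatin and 258 ± 25 in DMSO (SD, n = 3 each). It rose by 0.53 ± 0.10 in Pt-ttpy (adjusted p = 0.0105) and 0.42 ± 0.10 in cisplatin (adjusted p = 0.0122). The Pt-ttpy call was lost without Pt-ttpy replicate 1 (0.0559) or 2 (0.0642), and the cisplatin call without DMSO replicate 3 (0.0506). SNAI1, which encodes a repressor of CDH1, fell by 1.28 on the log2 scale in Pt-ttpy (SE 0.34, adjusted p = 0.0322), a call lost when any 1 of 5 libraries was left out (adjusted p of 0.0524 to 0.129), and its change in cisplatin was -0.82 ± 0.33 (adjusted p = 0.099). TCF4, an E-protein, rose in cisplatin by 0.49 ± 0.14 (adjusted p = 0.0321), which was lost when any 1 of 5 libraries was left out (0.0541 to 0.102). ZEB1 had changes of 0.43 ± 0.22 in Pt-ttpy and 0.14 ± 0.22 in cisplatin and SNAI2 of -0.02 ± 0.15 and 0.02 ± 0.15, none called, and ZEB2 had 2 counts in Pt-ttpy, 0 in cisplatin and 8 in DMSO.

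Of 15 mesenchymal structural genes 10 were tested. AXL, a receptor tyrosine kinase, rose by 1.12 ± 0.19 in Pt-ttpy (adjusted p = 0.00895) and 1.73 ± 0.20 in cisplatin (adjusted p = 0.000337). S100A4, a calcium-binding protein of motile cells, rose in cisplatin by 0.68 ± 0.12 (adjusted p = 0.00457). FN1, fibronectin, was low for a mesenchymal gene, at 1.09 ± 0.331 CPM in Pt-ttpy, 1.66 ± 0.552 in cisplatin and 1.33 ± 0.363 in DMSO (SD, n = 3 each), with no call. The median log2 change of the 10 was 0.02 in Pt-ttpy and 0.05 in cisplatin, against 0.03 and 0.01 over all tested genes.

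Fibroblast and stromal markers moved with the drugs as well. Of 9, 8 were tested, and 6 rose in Pt-ttpy, beside 5.59% of all tested genes called higher, and 6 in cisplatin, beside 10.7%. The list was chosen with earlier results of these data known, so these counts carry no support. The median log2 changes were 0.75 in Pt-ttpy and 0.87 in cisplatin. The PDGFRB call in Pt-ttpy was lost when any 1 of 6 libraries was left out (adjusted p of 0.0501 to 0.0948), and in cisplatin the DCN and PDGFRA calls were lost without cisplatin replicate 1 (0.0685 for DCN and 0.0527 for PDGFRA) or cisplatin replicate 3 (0.0701 for DCN and 0.0562 for PDGFRA). In Pt-ttpy the lowest adjusted p were those of ACTA2 (log2 1.69 ± 0.20), PDGFRA (0.72 ± 0.12), LUM (1.22 ± 0.22) and DCN (0.61 ± 0.11, lost without Pt-ttpy replicate 2 at adjusted p = 0.0593), and in cisplatin those of ACTA2 (3.64 ± 0.21), COL3A1 (0.93 ± 0.14), PDGFRB (1.29 ± 0.29) and LUM (0.91 ± 0.22). Their summed level was 1707 to 1790 CPM in Pt-ttpy, 1643 to 1911 CPM in cisplatin and 950 to 1070 CPM in DMSO, with FAP at 0 counts in all 9 libraries. ACTA2, smooth-muscle actin, was lower in Pt-ttpy than in cisplatin by -1.96 ± 0.19 (adjusted p = 0.000637). The part of these genes in the VIM and KRT8 values was not tested.

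Leukocyte and endothelial markers were low. Leukocyte markers summed to 3.82 to 5.39 CPM in Pt-ttpy, 5.1 to 5.7 in cisplatin and 3.57 to 5.5 in DMSO, with 6 of 10 under 10 counts in each library. Endothelial markers summed to 4.86 to 7.67 CPM in Pt-ttpy, 5.63 to 7.32 in cisplatin and 7.6 to 10.4 in DMSO. Only 3 of the 10 leukocyte and 1 of the 7 endothelial markers were tested. None of these was called in either drug, beside 12.0% of all tested genes in Pt-ttpy and 20.5% in cisplatin. So few tested genes cannot show that the markers were unchanged. Neural markers summed to 33.8 to 38.7 CPM in Pt-ttpy, 27.7 to 39.7 in cisplatin and 34.5 to 50.4 in DMSO. Of 8 such markers 5 were tested and 1 was called in cisplatin, beside 9.78% of all tested genes called lower. This was TUBB3, a neuronal tubulin, which fell by 0.66 on the log2 scale in cisplatin (SE 0.19, adjusted p = 0.0308). The TUBB3 call was lost when any 1 of 5 libraries was left out (0.0505 to 0.0933) and with library totals (0.0724) or upper-quartile factors (0.0686). Of the 7 tested genes of the lineage list 1 was called, in cisplatin, beside 10.7% of all tested genes called higher. This was BCAM, a laminin receptor, which rose in cisplatin by 1.01 ± 0.26 (adjusted p = 0.0209). Its call was lost without DMSO replicate 1 (0.0636) or DMSO replicate 3 (0.0602). Without cisplatin replicate 2 and DMSO replicate 2 the BCAM change was 0.66 (adjusted p = 0.000935).

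**Figure D4:**
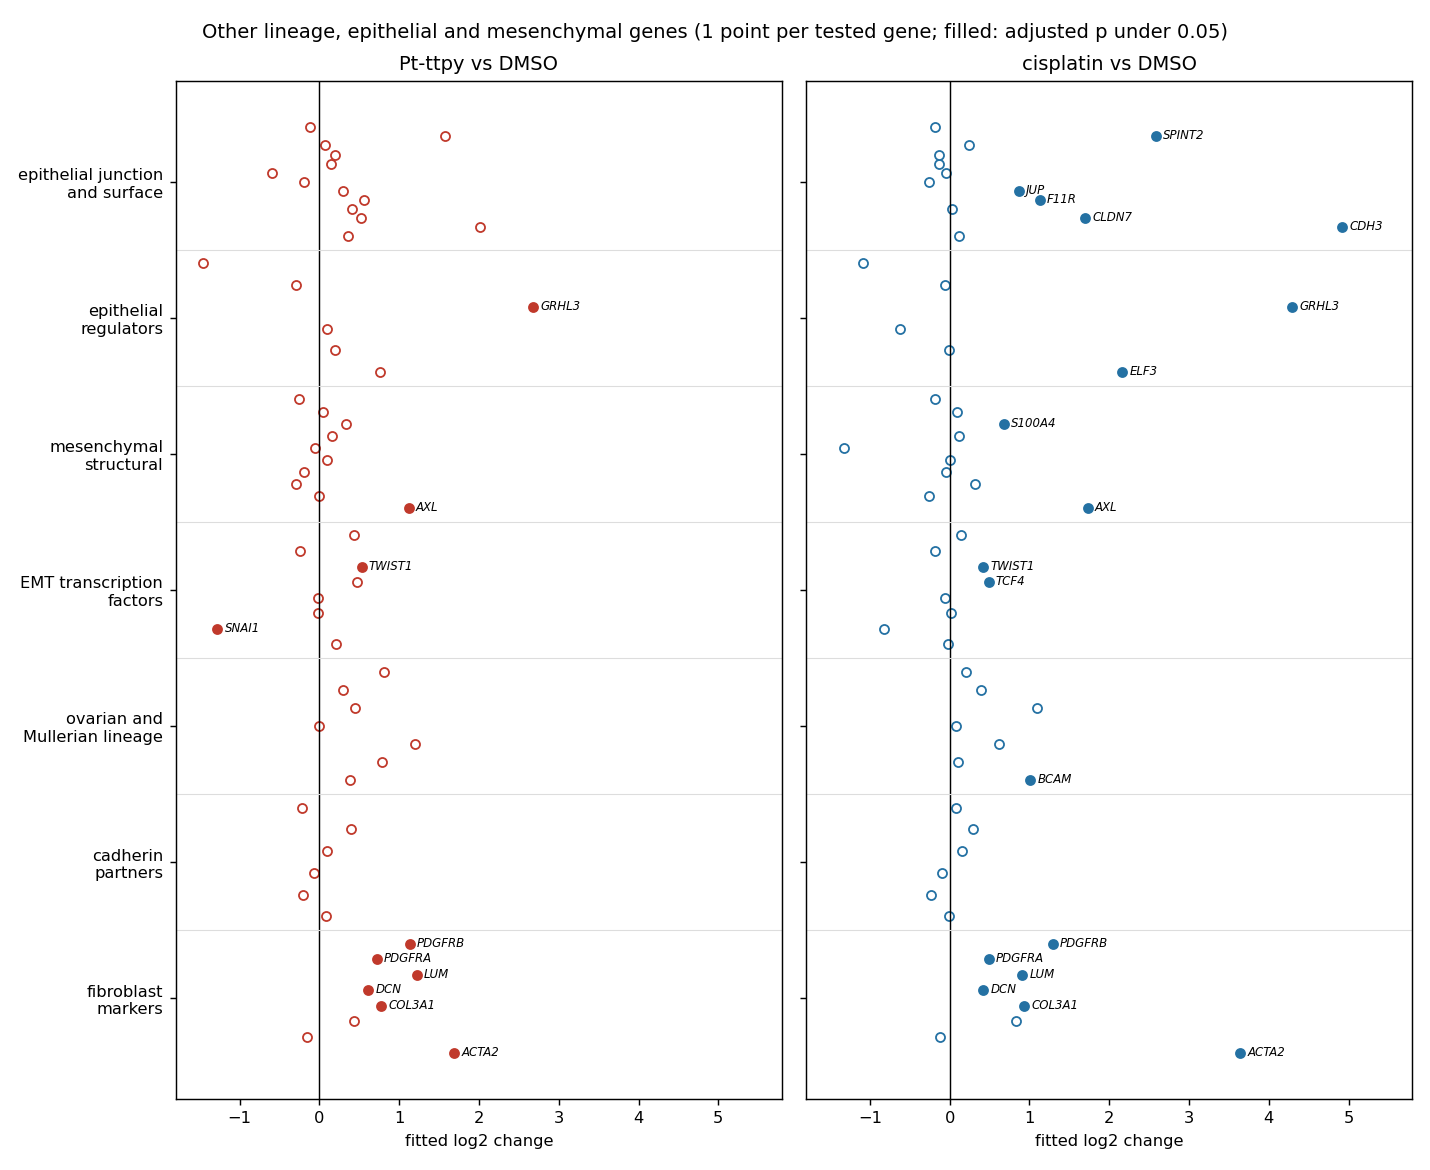
Fitted log2 change of each tested gene of 7 related lists (rows) for Pt-ttpy vs DMSO (left) and cisplatin vs DMSO (right); filled points have an adjusted p under 0.05 and are labelled. GRHL3 is filled in both panels, at 2.68 and 4.29, and 6 fibroblast markers are filled in each.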

How the data were processed

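The deposited file is 1 count table of 9 A2780 libraries, with raw counts for each gene as the authors left them, and every column belongs to a sample. The drug abbreviated "Cispt" was read as cisplatin. The genome build was GRCh38, per the submitters' processing notes; aligner, counter and strandedness: not given in the sources used here. The 10 members and 11 further lists were chosen with earlier results of these data known.

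The tests were run in edgeR 4.0.16 under R 4.3.3: filterByExpr (minimum count 10), TMM scaling, robust quasi-likelihood fits with 1 mean per group over 9 libraries, and Benjamini-Hochberg adjustment over 15558 genes, called under 0.05. Adjusted p-values of single genes are from this test. SE is the fitted log2 change (prior count 0.125) over the root of its F value. Each comparison had 23 alternatives, including DESeq2 1.42.0, limma-voom (limma 3.58.1), other scalings and each library left out. The program was tested on simulated data. Exon lengths and overlaps are from GENCODE 29 and promoter windows from RefSeq.

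All members were named, and from each other list up to 4 called genes per comparison by adjusted p, plus 12 genes chosen by name. The result of 1 gene that meets this rule is not reported here. CPM, counting intervals (exact conditional binomial, 95%) and the floor of 3 counts over a group cover counting error only. The floor covers it for the empty group alone. Deviations from group means of same-numbered cisplatin and DMSO libraries correlated (r = 0.20, 0.35 and 0.18 for replicates 1, 2 and 3). Differently numbered ones gave 0.13 between replicates 1 and 3, either way round, and -0.25 to -0.23 where 1 of them was a replicate 2. Both replicates 2 share the GC trend, and whether the numbers pair libraries cannot be told. The main test has no block, and the replicate block is an alternative. Same-numbered Pt-ttpy libraries gave -0.04 to 0.09 with the other groups. No 2 libraries were identical.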

Additional observations from a re-analysis of the deposited data

How the results depend on the processing

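Of the changes of single members, 365 stayed on their side of the threshold under an alternative, 21 passed it, 10 lost it and 2 turned sign. The shares of all genes called under the alternatives are not given here, so the counts of members under them have no background beside them. For Pt-ttpy against DMSO, main count 0, the count of members called was 1 with DESeq2, with no filter on low counts, with the replicate block and at adjusted p under 0.1 (KRT8 each time), and 1 without cisplatin replicate 2 and DMSO replicate 2 (VIM). It ranged from 0 to 1 when each library was left out, and KRT8 was the gene, without DMSO replicate 1. For cisplatin against DMSO, main count 3, it was 5 with DESeq2, the replicate block and adjusted p under 0.1, 1 at a minimum count of 50, where 3 members were tested, and 2 to 3 with each library left out. KRT8 and CLDN4 kept their cisplatin calls in every alternative that gave a value at its threshold, EPCAM was the call lost, and VIM gained one in 7, among them without DMSO replicate 2 (adjusted p = 0.0426), without cisplatin replicate 1 (0.0485), with library totals (0.0476), and without both cisplatin replicate 2 and DMSO replicate 2, where the count was 4. For Pt-ttpy against cisplatin, main count 0, it was 1 with DESeq2, with no filter, without cisplatin replicate 2 and DMSO replicate 2 and at adjusted p under 0.1, and 0 to 1 with each library left out (CLDN4 each time); the replicate block gave 0. The sign turned for CDH2, to 0.44 with limma-voom and 0.26 without cisplatin replicate 3 (-1.33 to 0.26 with each library left out), and the cause was not tested. In pairs that share only a number, the block lifted KRT8 in Pt-ttpy to adjusted p = 0.0495, and it changed no call of a member beyond those named. No scaling turned the sign of a tested member or of a called list gene, and list genes without a call were not checked. The median of all genes moved by at most 0.1. PAX8, WT1, CDH1 and KRT18, at 0 to 12 counts a library, were not tested. Bounds without named libraries were added after the data were seen.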
